A study of Mus musculus with 18 samples.

Results

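The genes described here make cholesterol or control its synthesis. *Hmgcs1*, *Idi1*, *Fdft1*, *Sqle*, *Lss* and *Cyp51* encode enzymes of the sterol pathway, *Srebf2* encodes the transcription factor SREBP2, and *Insig1* encodes a protein that holds SREBP2 back. These 8 genes were taken by symbol, and each was found once in both RNA-seq tables used, as 8 of 21959 genes in the table of fibroblasts and 8 of 51826 genes in the table of liver.

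Cells make cholesterol from acetyl-CoA through mevalonate, isoprenoids, squalene and lanosterol. When sterols in the membrane of the endoplasmic reticulum run low, the SREBP2 precursor leaves it with its escort SCAP, is cut by proteases in the Golgi and turns on the genes of the pathway. When sterols are plentiful, the INSIG proteins retain SCAP and SREBP2, and the pathway genes are expressed less; in liver these genes are also known to follow feeding.

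The study deleted repeat B of *Xist*, the RNA that coats the inactive X chromosome, in mice by CRISPR/Cas9, and compared RNA from homozygous RepB-/- mice with RNA from WT mice. Primary mouse embryonic fibroblasts (MEFs) and liver were used here, with 3 RepB-/- and 3 WT libraries in each, 12 of the 18 libraries of the series; the remaining 6, of brain, were left out here. The labels give Tail as the source tissue of the MEFs, and give no age, sex or strain for any library. They do not say whether the libraries of a group came from separate animals, so p-values measure the spread between these libraries, which may be partly technical.

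Library totals ran from 11540344 to 20587556 counts in MEFs, with WT replicate 1 the lowest, and from 37682201 to 51542709 in liver. Levels are given as counts-per-million (CPM) values, scaled by library size and TMM factors. All 8 fibroblast markers looked at were above 1 CPM in every MEF library, where the 8 hepatocyte markers summed to at most 2.49 CPM, and all 8 hepatocyte markers were above 1 CPM in every liver library. *Xist* is listed in the liver table alone and reads over the rest of the gene do not check the deletion. It had 14704, 4 and 22681 counts in RepB-/- replicates 1 to 3 and 14494, 21594 and 26345 in WT. The library labelled liver RepB-/- replicate 2, with 4 *Xist* counts, also held 4342 counts of Y-linked genes, against at most 1 in the other liver libraries. These counts look like those of a male, which cannot be homozygous for a deletion on the X chromosome. Sex and genotype may therefore be mixed in the liver comparison. The replicate 1 libraries of liver, of both genotypes, stood apart from the other 4. The fetal liver markers *Afp*, *H19*, *Igf2*, *Gpc3* and *Dlk1* summed to 5970 and 4753 CPM in RepB-/- and WT replicate 1, and to at most 20.2 CPM in the other 4, so liver results are given with all libraries, with a term for replicate 1, and without replicate 1.

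All 8 genes are autosomal. In the GRCm38 coordinates of the liver table, *Insig1* lies at chr5:28071363-28078662 on the plus strand and *Cyp51* at chr5:4081145-4104746 on the minus strand. *Idi1* lies at chr13:8885501-8892451 and *Hmgcs1* at chr13:119690462-119708086, both on the plus strand. *Sqle* lies at chr15:59315077-59331192 and *Srebf2* at chr15:82147266-82205376, both on the plus strand. *Lss* lies at chr10:76531588-76557138 on the plus strand and *Fdft1* at chr14:63145153-63177793 on the minus strand.

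SREBP2 binds sterol regulatory elements, usually next to boxes for the factors NF-Y and Sp1, so the RefSeq promoters (GRCm38.p6, the 250 bases before each start) were searched on both strands. A promoter sequence was held for 6 of the 8 genes, all but *Sqle* and *Fdft1*. The sterol regulatory element core CACCCCAC was present in 2.58% of 32851 RefSeq promoters and, among the 6, in that of *Hmgcs1*, 136 bases before the start. The looser form TCACNCCA, which can overlap the core, was present in 3.67% of promoters and, among the 6, in those of *Hmgcs1* and *Srebf2*. The NF-Y box CCAAT was present in all 6 and in 33.8% of all promoters. The Sp1 box GGGCGG was also present in all 6, and in 32.7% of all promoters. The E-box CACGTG was present in 6.02% of all promoters and, among the 6, in that of *Insig1*. A match is a description of the letters and not a measured binding site. The *Hmgcs1* and *Srebf2* promoters are printed because they hold the sterol element; *Hmgcs1* was also the gene of the 8 that passed the test in MEFs. Both are plus strand, at chr13:119690101-119690350 and chr15:82147019-82147268, and capitals mark the sterol element in either form and the NF-Y box, which reads ATTGG on this strand.
Hmgcs1: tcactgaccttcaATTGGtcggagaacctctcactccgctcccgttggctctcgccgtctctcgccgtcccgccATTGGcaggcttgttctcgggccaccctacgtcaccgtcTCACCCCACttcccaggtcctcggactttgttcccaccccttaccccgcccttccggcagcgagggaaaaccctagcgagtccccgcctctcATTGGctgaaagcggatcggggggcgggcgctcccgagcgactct
Srebf2: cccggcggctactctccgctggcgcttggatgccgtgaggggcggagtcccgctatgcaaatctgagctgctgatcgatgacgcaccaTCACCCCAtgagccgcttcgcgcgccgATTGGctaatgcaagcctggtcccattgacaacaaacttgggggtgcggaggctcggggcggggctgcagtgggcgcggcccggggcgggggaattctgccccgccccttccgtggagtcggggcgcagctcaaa

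In MEFs, deletion of repeat B was accompanied by a higher level of 1 of the 8 genes. *Hmgcs1*, whose product condenses acetyl-CoA and acetoacetyl-CoA at the entry to the mevalonate pathway, rose by a log2 fold change of 0.40. The other 7 did not pass the test, with log2 fold changes between -0.04 and 0.22. The test was edgeR's quasi-likelihood test on the counts, with p-values adjusted by the Benjamini-Hochberg procedure over all genes tested and a gene called at an adjusted p under 0.05. By this rule 39.1% of the 13306 genes tested in MEFs were called, 19.4% higher and 19.7% lower in RepB-/-, so 1 call in 8 is a smaller share than that of all genes. The median log2 fold change was 0.08 over the 8 genes and 0.00 over all genes tested.

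*Hmgcs1* stood at 59.6, 61.3 and 52.2 CPM in RepB-/- replicates 1 to 3 and at 37.9, 44.8 and 48.1 CPM in WT. Every RepB-/- library was above every WT library, a pattern that 26.4% of the genes tested showed in this direction and 25.8% in the other. The means were 57.7 ± 4.85 and 43.6 ± 5.20 CPM (SD, n = 3), and the log2 fold change was 0.40 with a 95% confidence interval of 0.19 to 0.61 (adjusted p = 0.00562, edgeR). With each library left out in turn it stayed called, at 0.31 to 0.48.

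*Idi1* encodes the isomerase that balances the isoprenoid building blocks made from mevalonate. It stood at 26.0, 25.2 and 22.8 CPM in RepB-/- and at 16.0, 25.7 and 21.6 CPM in WT. The groups overlapped, since WT replicate 2 lay above 2 of the RepB-/- libraries. The log2 fold change was 0.22 with an interval of -0.08 to 0.52 (adjusted p = 0.230, edgeR). Without WT replicate 1 it was 0.065 (adjusted p = 0.657, edgeR), and without WT replicate 2 it was 0.38 and passed (adjusted p = 0.0399, edgeR).

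*Insig1*, itself a target of SREBP2 as well as its inhibitor, stood at 66.3, 60.2 and 60.5 CPM in RepB-/- and at 53.0, 57.5 and 58.5 CPM in WT. The groups did not overlap in CPM but the difference did not pass, at a log2 fold change of 0.14 with an interval of -0.02 to 0.31 (adjusted p = 0.158, edgeR). *Srebf2* stood at 207.8, 200.3 and 189.8 CPM in RepB-/- and at 172.4, 195.4 and 188.7 CPM in WT. These ranges overlapped, and the log2 fold change was 0.10 with an interval of -0.05 to 0.26 (adjusted p = 0.278, edgeR).

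The enzymes that make and epoxidize squalene had similar ranges of CPM in both genotypes. *Fdft1*, squalene synthase, stood at 65.7, 60.2 and 51.9 CPM in RepB-/- and at 58.1, 64.8 and 60.4 CPM in WT. *Sqle*, the epoxidase and a rate-limiting step, stood at 96.1, 86.8 and 88.6 CPM in RepB-/- and at 87.2, 96.8 and 95.8 CPM in WT. Both had a log2 fold change of -0.04, with intervals of -0.24 to 0.15 for *Fdft1* and -0.20 to 0.12 for *Sqle*.

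*Lss*, lanosterol synthase, which closes the sterol rings, stood at 51.4, 51.5 and 47.1 CPM in RepB-/- and at 42.0, 50.8 and 50.8 CPM in WT. *Cyp51*, which removes a methyl group from lanosterol, stood at 142.8, 124.1 and 126.9 CPM in RepB-/- and at 113.2, 135.2 and 129.0 CPM in WT. Their log2 fold changes were both 0.06, with intervals of -0.13 to 0.25 and -0.12 to 0.24. Over *Fdft1*, *Sqle*, *Lss* and *Cyp51* the intervals reached no further than -0.24 and 0.25. WT replicate 1, the shallowest library, was the lowest of the 6 for all of the 8 genes but *Fdft1* and *Sqle*.

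**Figure D1:**
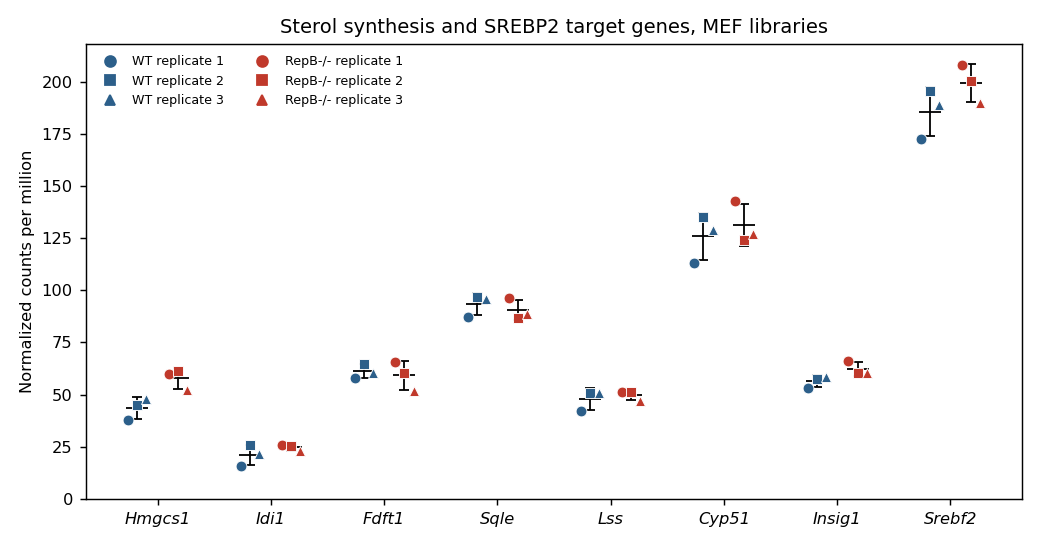
Normalized level (CPM) of the 8 genes in the 6 MEF libraries, with WT in blue and RepB-/- in red, marker shape for the replicate number and black bars for the mean ± SD of 3 libraries. Only for *Hmgcs1* and *Insig1* do the RepB-/- libraries all lie above the WT libraries, at 52.2 or more against 48.1 or less and at 60.2 or more against 58.5 or less.

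Of the 22 genes of the wider sterol pathway, which include 6 of the 8, 2 rose, 2 fell and 18 did not pass in MEFs, with a median log2 fold change of -0.07. These 4 calls in 22 are a smaller share than the 39.1% of all genes tested. *Ebp*, a sterol isomerase on the X chromosome, stood at 50.8, 53.3 and 52.2 CPM in RepB-/- and at 37.3, 37.4 and 37.5 CPM in WT, and rose by 0.48 (adjusted p = 3.1e-04, edgeR). *Sc5d*, a late desaturase, stood at 47.9, 53.9 and 48.6 CPM in RepB-/- and at 62.2, 62.6 and 64.2 CPM in WT, and fell by 0.33 on the log2 scale (adjusted p = 0.00432, edgeR). The groups of *Ebp* and *Sc5d* did not overlap. *Nsdhl*, the other X-linked enzyme of the late pathway, did not pass, at -0.12 (adjusted p = 0.352, edgeR).

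Of the 9 genes that process or regulate SREBP proteins, 2 rose and none fell in MEFs, again a smaller share than the 39.1% of all genes tested. Both encode the Golgi proteases that cut the SREBP precursors. *Mbtps2*, X-linked, stood at 27.6, 29.3 and 33.1 CPM in RepB-/- and at 18.1, 19.9 and 19.9 CPM in WT, and rose by 0.63 (adjusted p = 3.4e-04, edgeR). *Mbtps1*, autosomal, rose by 0.26 from between 202 and 217 CPM in WT to between 246 and 253 CPM in RepB-/- (adjusted p = 0.00742, edgeR). Among the 7 other SREBP2 targets 1 rose, *Tmem97*, by 0.21 (adjusted p = 0.0387, edgeR).

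Among genes that move sterols out of or around the cell, 2 of the 6 efflux and LXR genes tested fell and none rose, and of the 7 uptake and esterification genes tested 2 fell and 2 rose. Among all genes tested 39.1% were called, and nothing about these short lists is read from their counts. *Abcg1*, a sterol exporter that the LXR factors turn on, stood at 1.63, 1.19 and 1.37 CPM in RepB-/- and at 5.61, 2.60 and 3.92 CPM in WT, and fell by 1.51 on the log2 scale (adjusted p = 0.00230, edgeR), while *Nr1h2*, the gene of LXR beta, fell by 0.23 (adjusted p = 0.0265, edgeR). *Scarb1* and *Soat1* fell, by 0.33 and 0.27 on the log2 scale, and *Npc1* and *Npc2*, which carry cholesterol out of lysosomes, rose by 0.23 and 0.22 (adjusted p between 0.00295 and 0.0285, edgeR). Among 7 lipogenic genes tested 1 rose, *Acaca*, by 0.31 (adjusted p = 0.00640, edgeR). The calls of *Tmem97*, *Nr1h2*, *Npc1*, *Npc2* and *Soat1* were each lost when some single libraries were left out (adjusted p of at most 0.0965, edgeR).

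Markers of proliferation and some of the cell type markers differed by genotype in the same libraries. All 10 proliferation genes looked at rose in RepB-/- MEFs, among them *Top2a* by 1.01 and *Mki67* by 1.09, and their summed level was 834 to 902 CPM in RepB-/- and 505 to 580 CPM in WT. These are RNA levels and do not measure the rate of growth. The paper reports that MEFs without repeat B proliferated more slowly than WT in a culture assay. The 8 fibroblast markers summed to 14137 to 17186 CPM in RepB-/- and to 9682 to 12734 CPM in WT. *Col1a1* and *Col1a2* made up most of this sum, 4 of the 8 (*Col1a1*, *Col3a1*, *Pdgfra* and *Dcn*) were higher in every RepB-/- library, *Thy1* was lower in every one, and *Col1a2*, *Pdgfrb* and *Lum* overlapped. Of all genes tested in MEFs, 19.4% were called higher in RepB-/-. Every RepB-/- library was above every WT library for 26.4% of them and below for 25.8%. The 6 endothelial markers summed to 11.3 to 12.8 CPM in RepB-/- and to 24.2 to 28.5 CPM in WT. *Pecam1*, *Cdh5* and *Kdr* were lower in every RepB-/- library, *Stab2* and *Lyve1* overlapped, and *Clec4g* was at 0 CPM throughout. The summed macrophage, keratinocyte, stellate, cholangiocyte and fetal liver markers overlapped between genotypes. Sums of adipocyte, hepatocyte and erythroid markers were lower in every RepB-/- library but at most 3.05 CPM. The part of all these markers in the levels of the sterol genes was not tested. In libraries of whole cultures or tissues, fewer cells of a type and less RNA per cell cannot be told apart.

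Liver held much larger differences between libraries, and these did not follow genotype. All 8 genes were lower in both replicate 1 libraries than in each of the other 4, a pattern that 21.3% of the 16080 genes tested in liver showed in this direction and 23% in the other. The median of the log2 ratio of replicate 1 to the mean of replicates 2 and 3 was -2.56 over the 8 genes in RepB-/- and -3.72 in WT. The same medians over all genes tested were 0.00 and -0.01. This split was read from the data and carries no test.

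*Idi1*, *Sqle* and *Cyp51* had the widest gaps in RepB-/-, and wide ones in WT. *Idi1* stood at 6.52, 163 and 125 CPM in RepB-/- replicates 1 to 3 and at 5.87, 239 and 147 CPM in WT. *Sqle* stood at 4.64, 71.5 and 79.4 CPM in RepB-/- and at 4.53, 135 and 86.6 CPM in WT. *Cyp51* stood at 11.2, 233 and 218 CPM in RepB-/- and at 13.0, 250 and 240 CPM in WT. The mean of replicates 2 and 3 was 22.1 and 32.9 times replicate 1 for *Idi1* in RepB-/- and WT, 16.3 and 24.5 times for *Sqle*, and 20.2 and 18.8 times for *Cyp51*. For each of these 3 genes the 2 replicate 1 libraries lay close together.

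*Hmgcs1* and *Lss* had gaps of several fold. *Hmgcs1* stood at 63.6, 440 and 387 CPM in RepB-/- and at 61.6, 702 and 483 CPM in WT, so that replicates 2 and 3 averaged 6.50 and 9.62 times replicate 1. *Lss* stood at 14.3, 88.4 and 46.3 CPM in RepB-/- and at 13.7, 114 and 95.6 CPM in WT, ratios of 4.70 and 7.64. *Insig1*, the inhibitor, stood at 38.4, 267 and 151 CPM in RepB-/- and at 16.4, 578 and 498 CPM in WT. Its ratios of 5.44 in RepB-/- and 32.7 in WT were the furthest apart of the 8, and RepB-/- was the higher genotype in replicate 1 and the lower one in replicates 2 and 3.

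*Fdft1* and *Srebf2* had the smallest gaps. *Fdft1* stood at 69.3, 178 and 143 CPM in RepB-/- and at 48.2, 244 and 187 CPM in WT. *Srebf2* stood at 52.2, 90.0 and 80.8 CPM in RepB-/- and at 53.8, 122 and 91.0 CPM in WT. The gene of the transcription factor itself thus differed by 1.64 and 1.98 times between replicate 1 and the others, less than any of the 6 enzymes.

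**Figure D2:**
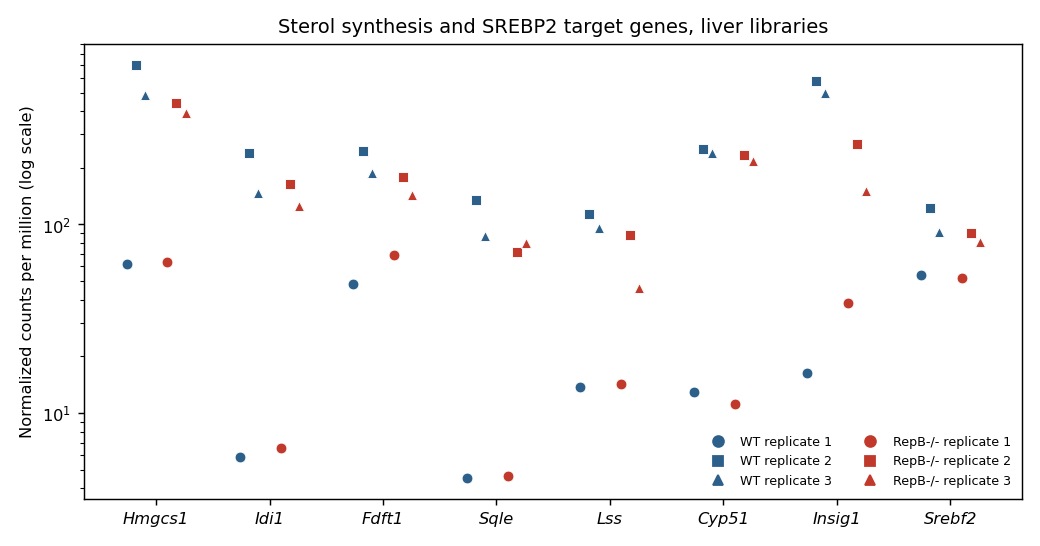
Normalized level (CPM), on a log scale, of the 8 genes in the 6 liver libraries, with WT in blue and RepB-/- in red and marker shape for the replicate number. For every gene the 2 circles of replicate 1 lie under the squares and triangles of replicates 2 and 3, from 4.53 against 71.5 or more CPM for *Sqle* to 53.8 against 80.8 or more for *Srebf2*.

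The same split ran through the rest of the pathway. Of the 22 sterol pathway genes, 20 were lower in both replicate 1 libraries than in the other 4, against 21.3% of all genes tested. The exceptions were *Lbr*, which also serves the nuclear envelope and was higher there, and *Ggps1*, which feeds protein prenylation and did neither. *Fdps*, which makes farnesyl diphosphate and whose counts are uncertain because near-identical copies could share its reads, stood at 16.4, 216 and 106 CPM in RepB-/- and at 14.3, 276 and 231 CPM in WT. *Nsdhl* stood at 9.28, 144 and 176 CPM in RepB-/- and at 8.48, 155 and 133 CPM in WT. All 7 other SREBP2 targets were lower in replicate 1 as well. *Acss2*, which makes acetyl-CoA from acetate, stood at 11.97, 151 and 111 CPM in RepB-/- and at 9.24, 225 and 166 CPM in WT.

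Genes outside sterol synthesis divided in both directions. Of all genes tested, 21.3% were lower and 23% higher in both replicate 1 libraries than in the other 4. Of 9 lipogenic genes, which SREBP1c drives in liver, 8 were lower in replicate 1; *Scd1* stood at 19.7, 2642 and 1326 CPM in RepB-/- and at 20.2, 1661 and 2132 CPM in WT. *Srebf1* did not follow *Srebf2*, at 343, 158 and 101 CPM in RepB-/- and 261, 394 and 339 CPM in WT. Of 8 efflux and LXR genes, 5 were higher in replicate 1, among them *Abcg5* and *Abcg8*, which export sterols into bile. The other 3, the LXR genes *Nr1h2* and *Nr1h3* and *Lpcat3*, were lower in replicate 1. *Abcg5* stood at 188, 69.2 and 51.0 CPM in RepB-/- and at 122, 47.7 and 58.2 CPM in WT. All 10 proliferation genes were higher in replicate 1, with sums of 376 and 379 CPM against 39.3 to 122 CPM. Erythroid markers summed to 4451, 2249 and 1393 CPM in RepB-/- and to 1625, 314 and 261 CPM in WT. This sum, mostly of globin genes, was highest in replicate 1 of each genotype and higher in RepB-/- at every replicate number. The part of the fetal, proliferation and erythroid signals in the levels of the sterol genes was not tested.

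**Figure D3:**
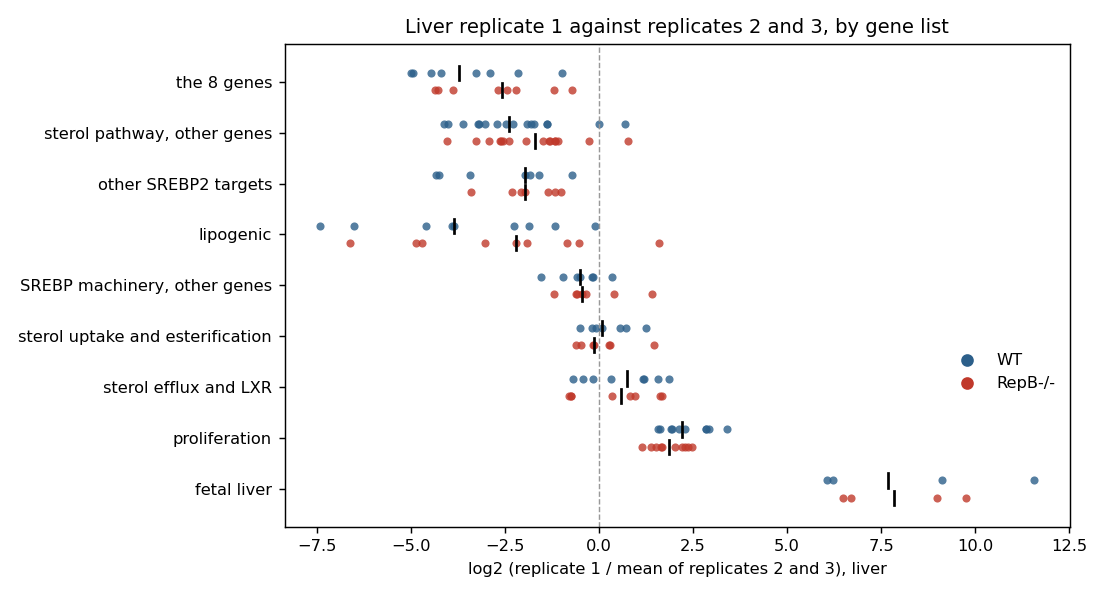
Log2 ratio of replicate 1 to the mean of replicates 2 and 3 in liver, after 0.5 CPM was added to each level, for each gene of 9 lists, with WT in blue, RepB-/- in red and a black bar at the median of each row. The 8 genes lie left of 0, with medians of -2.56 in RepB-/- and -3.72 in WT, and the 4 fetal liver markers that were tested lie right of 0, with medians of 7.85 and 7.67.

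Between genotypes, none of the 8 genes passed the test in liver. All 8 log2 fold changes were below 0, from -0.13 for *Cyp51* to -1.26 for *Insig1* with a median of -0.45, and the median over all genes tested was 0.01. The adjusted p was 1.00 for each (edgeR), none was under 0.05 before adjustment, and DESeq2 also called none. Few genes passed anywhere in liver, 0.0373% of the 16080 tested. The intervals were wide, from -4.07 to 1.56 for *Insig1* and from -2.79 to 1.82 for *Hmgcs1*, so differences of several fold in either direction were not detectable.

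The other lists had no call in liver by genotype either. The 22 sterol pathway genes had a median log2 fold change of -0.23. The 7 other SREBP2 targets had a median of -0.49, with *Acss2* at -0.55. Among the SREBP machinery genes *Srebf1* was at -0.72. The 9 lipogenic genes had a median of -0.81, with *Fasn*, fatty acid synthase, at -1.45 and *Scd1* at 0.06. The 8 efflux and LXR genes ran from -0.08 to 1.04 with a median of 0.21, with *Abca1* at -0.05, *Nr1h3* at -0.07 and *Abcg8* the highest. The 7 uptake and esterification genes tested ran from -0.20 for *Lipa* to 0.55 for *Scarb1*, with a median of 0.10 and *Lcat* at 0.16. The 10 proliferation genes ran from -0.55 for *Mcm3* to 0.95 for *Ccnb1*, with a median of 0.37, with *Pcna* and *Mcm5* at -0.01 and -0.20, and 6 of them were above 0. The adjusted p was 1.00 for each gene of these lists (edgeR).

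A term for replicate 1 narrowed the intervals without adding a call among the 8 genes. With it 0.056% of genes were called, the log2 fold changes ran from -0.11 for *Fdft1* to -0.56 for *Insig1*, and the adjusted p-values from 0.722 to 0.929 (edgeR). The interval became -0.90 to 0.24 for *Hmgcs1*, -0.53 to 0.22 for *Cyp51* and -0.66 to 0.21 for *Srebf2*. A replicate block, which assumes that same-numbered liver libraries pair, gave 0.0498% of genes called. None of the 8 was among them, with log2 fold changes of -0.11 to -0.59. With the term and with the Y-expressing RepB-/- replicate 2 left out, the range was -0.10 to -0.64 and none passed.

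Within replicates 2 and 3, 7 of the 8 genes lay lower in RepB-/-. RepB-/- replicate 2 is the library with 4342 counts of Y-linked genes, so sex and genotype may be mixed in all of these comparisons. Both RepB-/- libraries were below both WT libraries for 7 of the 8, all but *Idi1*, whose RepB-/- replicate 2 lay above WT replicate 3. That pattern was seen in 21.9% of all genes tested and its opposite in 21.2%. The 8 genes share the same 4 libraries and are not separate replicates of it. In a fit of these 4 libraries the log2 fold changes ran from -0.12 for *Cyp51* to -1.36 for *Insig1*. *Insig1* had an interval of -2.22 to -0.50 and did not pass after adjustment (adjusted p = 0.339, edgeR), and neither did the other 7 (adjusted p between 0.576 and 0.887, edgeR). Of the 9 lipogenic genes, 7 had both RepB-/- libraries below both WT libraries as well. The summed erythroid markers, mostly globin genes, went the other way, at 1393 and 2249 CPM against 261 and 314 CPM. Of the 8 markers, 5 had both RepB-/- libraries above both WT libraries and 1, *Epor*, had both below. *Alas2* and *Klf1* overlapped. The part of the erythroid markers in these differences was not tested.

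Replicate 1 did not share this order. The log2 difference of RepB-/- from WT had a median over the 8 genes of 0.05 in replicate 1, -0.50 in replicate 2 and -0.28 in replicate 3. *Insig1* was 1.20 higher in RepB-/- replicate 1 than in WT replicate 1 on this scale, then -1.11 and -1.72 in replicates 2 and 3. *Fdft1* changed sign likewise, from 0.52 to -0.46 and -0.39, while *Srebf2* was at -0.04, -0.44 and -0.17.

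**Figure D4:**
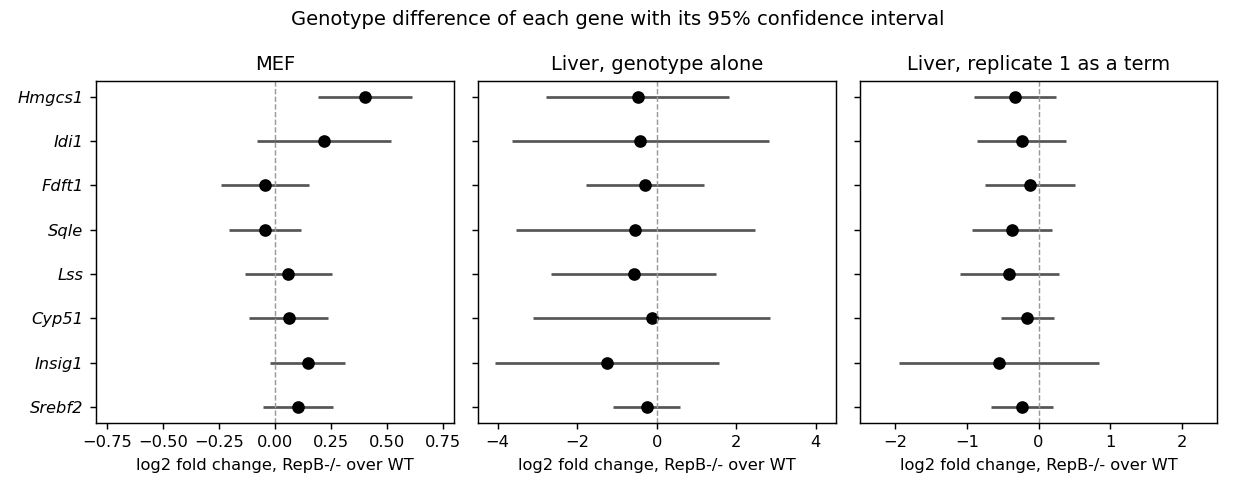
Log2 fold change of RepB-/- over WT for each of the 8 genes with its 95% confidence interval, in MEFs, in liver with genotype alone and in liver with a term for replicate 1, each panel with its own x axis. In MEFs the interval of *Hmgcs1* alone leaves out 0, at 0.19 to 0.61, and in liver every interval includes 0.

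Whether the genotype difference itself differed between liver and MEFs was tested as the interaction of genotype and tissue over the 12 libraries. Of 15208 genes tested, 0.388% were called, and none of the 8 was (adjusted p between 0.705 and 1.00, edgeR). The interaction, liver minus MEF, was below 0 for all 8 with all libraries, from -0.16 for *Cyp51* to -1.38 for *Insig1*, and its direction depended on single liver libraries. Without liver RepB-/- replicate 1 it was 0.35 for *Cyp51*, 0.035 for *Fdft1* and 0.029 for *Sqle*. Without liver WT replicate 2 it was 0.20 for *Cyp51*, 0.17 for *Fdft1*, 0.21 for *Sqle* and 0.11 for *Idi1*, and without liver WT replicate 3 it was 0.15 for *Cyp51*. For *Hmgcs1*, called in MEFs and not in liver, it was -0.86 with an interval of -3.27 to 1.54, and it was -0.30 without liver WT replicate 2 and -1.41 without liver WT replicate 1. With the replicate block it was -0.71 with an interval of -1.32 to -0.11, which leaves out 0, and did not pass after adjustment (adjusted p = 0.187, edgeR). The difference of *Hmgcs1* between tissues was thus not called in either fit.

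Levels per transcript length, as transcripts-per-million (TPM) values, put the 8 genes in different orders in the 2 tissues. In MEFs *Cyp51* and *Srebf2* led, at 105 to 120 and 98.0 to 107 TPM over the 6 libraries, ranges that overlap. *Insig1* followed at 70.5 to 79.5 TPM, then *Sqle* at 58.7 to 68.4, *Fdft1* at 46.8 to 60.1 and *Hmgcs1* at 34.0 to 50.0 TPM. *Idi1* and *Lss* were lowest, at 18.7 to 28.0 and 16.0 to 18.6 TPM. *Sqle* and *Fdft1* overlapped, as did *Fdft1* and *Hmgcs1*, and the other neighbours did not. By genotype, *Hmgcs1* stayed separated in TPM, with RepB-/- at 42.1 or more against 41.4 or less in WT. *Insig1* overlapped, at 72.6 to 79.5 TPM in RepB-/- and 70.5 to 74.8 in WT. *Sqle*, which overlapped in CPM, was lower in every RepB-/- library, at 58.7 to 64.3 against 64.7 to 68.4 TPM. These differences in TPM were not tested.

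In liver every gene spanned a wide range and all neighbours in the order overlapped. By the mean of the 6 libraries *Hmgcs1* led, at 35.1 to 363 TPM, followed by *Insig1* at 12.6 to 368, *Fdft1* at 33.7 to 143 and *Cyp51* at 5.56 to 108 TPM. *Idi1* ranged over 3.82 to 135 TPM and *Sqle* over 2.99 to 72.1 TPM. *Srebf2*, at 18.7 to 40.9 TPM, and *Lss*, at 5.39 to 40.3 TPM, were lowest. *Srebf2* had every liver library below every MEF library, while *Hmgcs1* and *Idi1* had the 4 libraries of replicates 2 and 3 above all MEF libraries. The tables of the tissues were made separately, so levels across them are side by side and not tested.

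**Figure D5:**
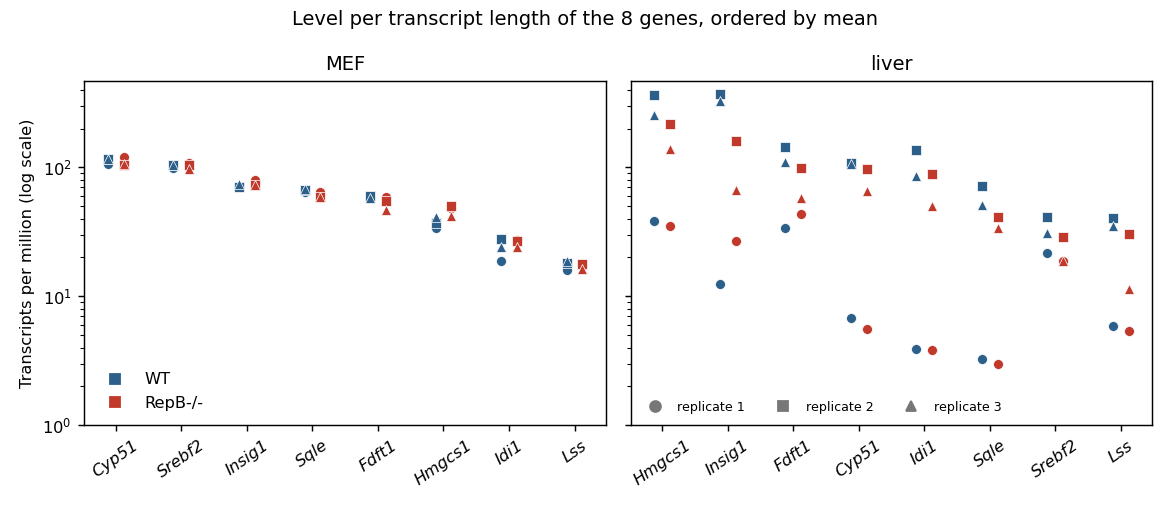
Level per transcript length (TPM), on a log scale, of the 8 genes in MEFs and in liver, each ordered by the mean of 6 libraries, with WT in blue, RepB-/- in red and marker shape for the replicate number. The MEF libraries of a gene span at most 1.49-fold, and those of liver from 2.19-fold for *Srebf2* to 35.4-fold for *Idi1*.

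The 8 genes moved together across the liver libraries and less so across the MEF libraries. The median Pearson correlation of log2 CPM over the 28 pairs of genes was 0.97 in liver, from 0.92 to 1.00, and 0.72 in MEFs, from 0.04 to 0.95, each over 6 libraries. In liver all 8 genes shared their lowest 2 libraries, those of replicate 1, and a correlation without these was not computed. Outside the lists, the liver genes most like the mean of the 8 were *Elovl1*, *Baat*, *Synj2bp*, *Kynu*, *Mocos* and *Stra6l*, with correlations from 0.996 to 0.999 among 7867 genes. *Baat*, which joins bile acids to amino acids, stood at 40.7, 179 and 165 CPM in RepB-/- and at 32.1, 257 and 218 CPM in WT. Of 21 sterol pathway genes at or above the mean of 10 CPM needed, 12 were among the 100 genes most like the mean, 6 of them members of the 8. These 6 are part of that mean, so their high rank is partly built in. In MEFs the most alike were *Tigd2*, *Thop1*, *Tmem147*, *Anxa6*, *Ndufa5* and *Sub1*, with correlations from 0.987 to 0.995 among 8954 genes. Of 20 sterol pathway genes with the level needed there, 3 were among the 100 genes most like the mean. *Thop1*, an oligopeptidase, stood at 82.0, 77.9 and 73.2 CPM in RepB-/- and at 65.8, 75.4 and 74.1 CPM in WT, with WT replicate 1 the lowest, as it was for 6 of the 8 genes.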

How the data were processed

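RNA-seq of 12 libraries was analysed, 3 RepB-/- and 3 WT of primary MEFs and of liver. Groups and replicate numbers came from the library titles, with B taken to stand for RepB-/- and W for WT. The 8 genes and the gene lists were chosen with earlier results of these data known. Per the paper's methods, the authors cleaned reads of stranded mRNA libraries with Cutadapt and used Hisat2 as the aligner. The submitters' processing notes name Trim Galore 0.4.1, STAR 2.7.0 and HTSeq 0.12.4, so which tools made these tables is not settled, and the annotation is not given in the sources used here. The MEF table carries GRCm39 coordinates and the liver table GRCm38.

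The deposited tables hold raw counts of reads per gene, which all tests used. The authors also gave FPKM values per gene for MEFs and TPM values for liver, and these were used for levels per length, with FPKM rescaled to TPM within each library. Another 6 per-library columns of the liver table were not used. Columns with the authors' own fold changes and p-values were not used where present.

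Each tissue was fitted with edgeR 4.0.16 in R 4.3.3 (TMM, filterByExpr, quasi-likelihood test, Benjamini-Hochberg adjusted p under 0.05) on genotype alone. The interaction used all 12 libraries joined by gene ID. Alternatives were DESeq2 1.42.0, its size factors, TMM over autosomal genes, no filter, a mean normalized count of at least 40, a replicate block, a term for liver replicate 1, and each library left out in turn. The fits on genotype alone were also run on counts simulated with absolute log2 fold changes of 2. In MEFs 96.4% of 196 changed genes were called. In liver 0% of 195 were called, so the absence of a call there does not exclude a change of this size. From each list other than the 8 genes, the genes named were those that passed, up to the 6 with the smallest adjusted p, or where none passed the 2 with the largest mean count. Some genes counted in the lists are not reported here. Liver genes named beyond that rule, and *Nsdhl* in MEFs, were chosen after their values were seen. Likeness was the Pearson correlation of log2 CPM with the mean of the 8 genes, among genes with a mean of at least 10 CPM.

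Deviations from the group means of same-numbered libraries correlated at 0.71, 0.36 and 0.37 in liver and at -0.01, -0.04 and -0.00 in MEFs, across genes. The deviations of a genotype sum to 0, so the split of liver replicate 1 can by itself raise the values of replicates 2 and 3. No correlation between differently numbered libraries was computed. Whether the numbers 2 and 3 pair liver libraries was therefore not settled, and the replicate block is an alternative only. Summaries used Python 3.11.15 with pandas 2.3.3 and numpy 2.4.6, and plots matplotlib 3.10.9. *Fdps* has near-identical copies in the genome that could share its reads, so its counts are uncertain, and those in MEFs are not reported.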

Additional observations from a re-analysis of the deposited data

How the results depend on the processing

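In MEFs the number of the 8 genes called was 1 under every alternative that kept all libraries, the replicate block included (*Hmgcs1* 0.40, adjusted p = 0.00696, edgeR), and 1 to 2 with a library left out. The number of sterol pathway genes called, 4, ranged from 4 to 7 and was 7 without WT replicate 1. In liver none of the 8 was called under any alternative, and the replicate block changed no call there. With 1 library left out, the log2 fold change ranged in MEFs from -0.0078 to 0.12 for *Cyp51*, from -0.022 to 0.11 for *Lss* and from -0.12 to 0.049 for *Fdft1*. In liver it ranged from -0.996 to 0.13 for *Hmgcs1*, -1.10 to 0.19 for *Sqle*, -0.99 to 0.36 for *Idi1*, -0.73 to 0.15 for *Fdft1*, -0.67 to 0.43 for *Cyp51*, -0.52 to 0.045 for *Srebf2*, -1.94 to -0.75 for *Insig1* and -1.30 to -0.13 for *Lss*. Over the same libraries the range in liver was -0.17 to 0.069 for *Abca1*, -1.12 to 0.066 for *Acss2*, -0.64 to 0.21 for *Lipa*, -1.49 to 1.96 for *Mcm5*, -0.38 to 0.14 for *Nr1h3*, -0.63 to 0.96 for *Pcna* and -0.92 to 0.66 for *Scd1*. None of these liver genes passed in any fit, and the cause of the changes was not tested.

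Liver genes outside the 8 changed sign in fits that treated replicate 1 otherwise. *Mcm5* was at -0.20 and became 0.41 with the replicate block, 0.29 with a term for replicate 1, 0.14 with that term and without RepB-/- replicate 2, and 0.67 without replicate 1 of both genotypes. *Pcna* was at -0.01 and became 0.15, 0.15, 0.16 and 0.34. *Scd1* was at 0.06 and became -0.018 with the replicate block and -0.31 with the term and without RepB-/- replicate 2. *Nr1h3* was at -0.07 and became 0.032 with the term and without RepB-/- replicate 2, and 0.015 without replicate 1. The fit without replicate 1 of both genotypes was chosen after seeing the data.

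In MEFs the calls of 5 named genes outside the 8 depended on the setting. *Tmem97* lost its call with the replicate block (adjusted p = 0.0505, edgeR), with a mean count of at least 40 (adjusted p = 0.0548, edgeR) and without RepB-/- replicate 1, 2 or 3 or WT replicate 1 or 3 (adjusted p from 0.0771 to 0.0965, edgeR). *Nr1h2* lost it without a filter (adjusted p = 0.0824, edgeR) and without RepB-/- replicate 1, 2 or 3 or WT replicate 1 (adjusted p from 0.0589 to 0.0854, edgeR). *Npc2* lost it without RepB-/- replicate 1, 2 or 3 or WT replicate 3 (adjusted p from 0.0575 to 0.0821, edgeR), *Npc1* without RepB-/- replicate 2 or 3 or WT replicate 3 (adjusted p from 0.0566 to 0.0648, edgeR) and *Soat1* without RepB-/- replicate 1 (adjusted p = 0.0575, edgeR). *Idi1* ranged from 0.065 without WT replicate 1 (adjusted p = 0.657, edgeR) to 0.38 without WT replicate 2, where it gained a call (adjusted p = 0.0399, edgeR).

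The lowest count of any of the 8 genes was 199 in MEFs and 203 in liver. The biological coefficient of variation was 9.06% in MEFs, 51.2% in liver and 32.7% in liver with a term for replicate 1.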
